A study of Homo sapiens with 45 samples.

Results

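The array of A375 cells transfected with siRNA against PIK3CB was compared with the arrays of the other siRNAs of the same batch. PIK3CB encodes p110beta, a catalytic subunit of the class I phosphoinositide 3-kinases. It is 1 of 45 arrays in the series, and 1 of 39 with a targeting siRNA. The study's list of siRNA targets places it in batch KD2 with 22 other arrays, and every difference below is its log2 value less the median of those 22. A375 is a human melanoma cell line. All cultures were cells of this line harvested after 48 h, and Affymetrix U133 Plus 2.0 arrays measured total RNA.

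The groups were as follows. The PIK3CB siRNA group was 1 array of 1 culture, given a pool of siRNAs at 100 nM as the labels state it, while the study's methods state a lower concentration. The 22 other KD2 arrays were each 1 culture with siRNA against 1 of ABL1, AKT1, CCNA2, CCNB1, CCND3, CDC16, CDC37, CDK4, CDKN2C, CEBPD, CEBPZ, CHEK1, FOXM1, GABARAP, HDAC2, HDAC3, MAP2K1, NMI, RBL2, RELA, SP100 and STAT6. Batch KD1 held 9 further targeting arrays and batch KD3 held 7. There were also 3 arrays of control siRNA and 3 of untreated cells, whose batch is not given. Control siRNA array 3 and untreated array 3 were nearly the same array, since 100% of probe sets in the untreated one lay within 10% of the control one. No second culture and no second siRNA against PIK3CB was measured. The difference therefore has no replicate check, and a change in PIK3CB activity and any other effect of this siRNA pool or of this culture cannot be told apart. A bulk array also cannot tell more cells that make an RNA from more RNA in each cell.

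Class I phosphoinositide 3-kinases make the lipid that recruits the kinase AKT to the membrane, and PIK3CB is one of the catalytic forms that most tissues express. Some of the genes described here are known targets of another system, NF-kappaB. NF-kappaB is a family of dimeric transcription factors held in the cytoplasm by IkappaB proteins and released when inflammatory signals activate the IkappaB kinases. Its target genes include chemokines that attract leukocytes, cytokines such as IL1A, and the inhibitors NFKBIA and TNFAIP3 that shut the pathway off again. Melanoma cells are known to secrete chemokines of the CXCL1 and CXCL8 type.

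A gene was called higher when it lay 2-fold or more above the KD2 median and above all 22 other KD2 arrays, and lower by the mirror rule. No p-value belongs to this rule. Of 19775 genes, 60 were called higher (0.303%) and 3 were called lower (0.0152%). Counting any size of difference, 791 genes lay above all 22 arrays (4.00%) and 908 lay below all 22 (4.59%). Counts within gene lists are read against these shares. Signals below 8.59 on the log2 scale, 1.5 times the median of the 3' BioB spike-in, are called below noise. By this limit 4 of the 60 higher genes had a KD2 median above noise, 29 were above noise in the PIK3CB siRNA array only, and 27 were below noise in both. The fold of a gene with a KD2 median below noise is imprecise.

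The higher genes were led by chemokines. CXCL2, CXCL3, CCL2, PTX3, CCL20, the MIR146A transcript, CXCL1, COXFA4L3 and CXCL8 were the 9 genes at 16-fold or more, and 26 of the 60 were at 4-fold or more. Of the 60, 29 belonged to lists of inflammatory ligands, cytokine receptors, NF-kappaB components, NF-kappaB feedback inhibitors or inflammatory effectors. The lists and these genes were chosen with earlier results of these data known.

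**Figure D1:**
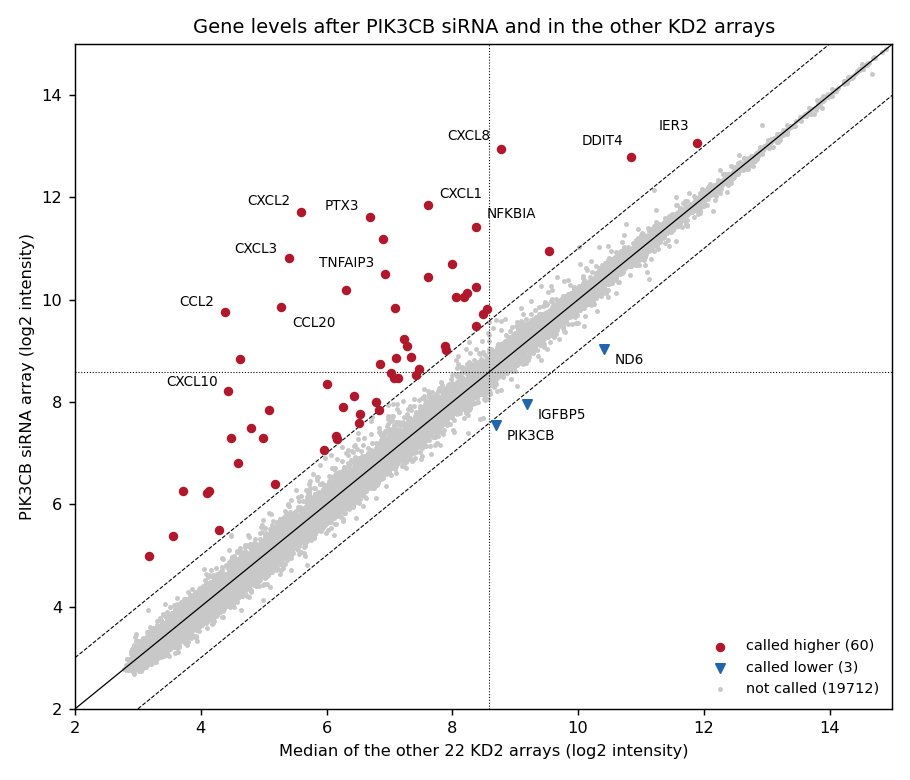
Each point is a gene, with its log2 intensity in the PIK3CB siRNA array on the vertical axis and the median of the other 22 KD2 arrays on the horizontal axis. The dashed lines mark 2-fold and the dotted lines the noise limit of 8.59. The 60 genes called higher stand above the upper dashed line, and 3 genes called lower, PIK3CB among them, stand below the other one.

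The stretches of DNA before the starts of 7 genes are shown because 6 of these genes were called higher and CXCL5, a neighbour of 4 of them on chromosome 4, was not. They are 200 bases each, read 5′ to 3′ towards the gene from the RefSeq tables of GRCh38.p14. Capitals mark matches to the NF-kappaB consensus or to the shorter form GGAANTTCC, on either strand, and the forms overlap in CXCL1, CXCL2, CXCL3, CXCL5 and NFKBIA.
CXCL8 (chr4:73740369-73740568, plus strand): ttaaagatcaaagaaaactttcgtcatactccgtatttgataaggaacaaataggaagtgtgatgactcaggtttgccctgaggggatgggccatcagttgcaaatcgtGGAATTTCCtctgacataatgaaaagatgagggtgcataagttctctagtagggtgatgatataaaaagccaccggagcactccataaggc
CXCL1 (chr4:73869193-73869392, plus strand): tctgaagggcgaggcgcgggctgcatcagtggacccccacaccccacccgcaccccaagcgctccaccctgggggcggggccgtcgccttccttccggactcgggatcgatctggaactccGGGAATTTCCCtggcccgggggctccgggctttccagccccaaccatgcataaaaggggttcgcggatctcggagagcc
CXCL2 (chr4:74099196-74099395, minus strand): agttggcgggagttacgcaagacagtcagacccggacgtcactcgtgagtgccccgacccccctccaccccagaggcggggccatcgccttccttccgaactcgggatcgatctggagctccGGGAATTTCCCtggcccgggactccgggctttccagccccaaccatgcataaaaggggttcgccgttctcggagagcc
CXCL3 (chr4:74038690-74038889, minus strand): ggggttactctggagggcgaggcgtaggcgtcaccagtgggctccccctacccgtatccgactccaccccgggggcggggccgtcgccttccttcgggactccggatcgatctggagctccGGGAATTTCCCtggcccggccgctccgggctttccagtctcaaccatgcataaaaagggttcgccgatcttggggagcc
NFKBIA (chr14:35404750-35404949, minus strand): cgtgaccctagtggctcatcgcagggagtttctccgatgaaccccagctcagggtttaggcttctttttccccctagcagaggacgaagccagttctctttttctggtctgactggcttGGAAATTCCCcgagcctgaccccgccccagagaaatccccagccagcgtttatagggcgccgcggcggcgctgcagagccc
TNFAIP3 (chr6:137867059-137867258, plus strand): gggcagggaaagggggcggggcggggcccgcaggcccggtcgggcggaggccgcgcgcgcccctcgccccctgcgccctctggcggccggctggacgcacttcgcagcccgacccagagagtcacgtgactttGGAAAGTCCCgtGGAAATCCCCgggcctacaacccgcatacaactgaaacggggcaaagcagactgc
CXCL5 (chr4:73998678-73998877, minus strand): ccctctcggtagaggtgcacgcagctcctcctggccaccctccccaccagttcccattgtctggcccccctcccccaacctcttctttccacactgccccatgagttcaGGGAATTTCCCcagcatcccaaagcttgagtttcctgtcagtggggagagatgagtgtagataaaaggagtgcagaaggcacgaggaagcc
The windows of CXCL1, CXCL2 and CXCL3 were alike over 77.2% to 80.8% of aligned positions, and that of CXCL8 matched CXCL1 over 45.1%. All 3 of CXCL1, CXCL2 and CXCL3 held the same run of 11 bases in capitals, as did CXCL5 and CXCL6. The CXCL5 and CXCL6 signals in the PIK3CB siRNA array were below noise and near those of the other arrays.

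Over the longer RefSeq window from 250 bases before a start to 50 after it, 46 of the 60 higher genes had a sequence. The NF-kappaB consensus was found on either strand in 16 of these 46 windows (34.8%), against 12.4% of the windows of all 15384 measured genes with one. GGAANTTCC was found in 11 of 46 (23.9%), against 1.01% of all windows. These counts share windows, and at least 1 of the forms stood in 18 of 46 (39.1%), against 12.9% of all windows. An AP-1 motif, TGANTCA, stood in 6 of 46 (13%) against 5.84%, and a C/EBP motif, TTGCNNAA, in 6 of 46 (13%) against 8.39%. These are counts of letters in windows and no sites of binding were measured. CCL2 and LIF had no window in the tables used.

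The target was low in its own array. PIK3CB mRNA stood at 7.54 in the PIK3CB siRNA array, against 8.04, 8.69 and 8.99 as the lowest, median and highest of the other 22 KD2 arrays. Its level did not overlap with theirs and was the lowest of all 45 arrays. The difference was -1.15 on the log2 scale, so that 45.2% of the KD2 median signal remained (exact rank test over 23 arrays, one-sided p = 0.0435, the smallest these arrays allow). The study kept siRNAs for lowering their targets, so a low value was selected. A second PIK3CB probe set, below noise, differed by -0.91 and was also the lowest of the KD2 arrays.

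Other genes of the phosphoinositide 3-kinase system showed no such differences. Of 13 catalytic and regulatory subunits with a value, PIK3CB was the one called, and the other 12 lay between -0.22 and 0.30. PIK3CD, the leukocyte-enriched catalytic subunit, had the highest of these differences and PIK3R3 the lowest. Of 24 effectors and phosphatases none was called, with a median of -0.02 beside -0.01 over all genes. Of 17 genes that FOXO factors are known to induce, BCL6, a transcriptional repressor, was called higher at 1.24, and the list's median was -0.04. IRS2, an insulin receptor substrate in that list, stood at 11.74 in the PIK3CB siRNA array and at a median of 12.15 in the other KD2 arrays, below all 22.

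Chemokines of the ELR CXC class attract neutrophils through the receptors CXCR1 and CXCR2. CXCL2 stood at 11.71 in the PIK3CB siRNA array, against 4.89, 5.59 and 6.43 as the lowest, median and highest of the other 22 arrays. The arrays did not overlap, and the difference of 6.12 was the largest of any gene, 69.8-fold and 18.6 SD of the other arrays. CXCL3 stood at 10.81, against 4.71, 5.40 and 6.26, a difference of 5.41 or 42.6-fold. CXCL1, the founding member of the growth-regulated chemokines, stood at 11.86, against 6.72, 7.61 and 8.15, a difference of 4.24 or 18.9-fold. CXCL8, the interleukin-8 gene, stood at 12.94 in the PIK3CB siRNA array, against 7.76, 8.78 and 9.65 in the other KD2 arrays, a difference of 4.16 or 17.9-fold. Its second probe set differed by 5.12. In KD3, control siRNA array 3 and untreated array 3 the levels of CXCL2, CXCL3 and CXCL8 were also above all 22 other KD2 arrays, though below that of the PIK3CB siRNA array. The probe sets used for CXCL2 and CXCL8 carry the suffix x, which Affymetrix gives to sets whose probes can bind related transcripts, while those for CXCL1 and CXCL3 do not. The other 3 members of the class, CXCL5, CXCL6 and PPBP, differed by 0.25, 0.04 and -0.07 and were below noise in both.

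The CXC cluster on chromosome 4 held called and uncalled genes side by side. In chromosomal order it runs CXCL8, CXCL6, PF4V1, CXCL1, PF4, PPBP, CXCL5, CXCL3 and CXCL2, followed by MTHFD2L and the growth factor genes EREG and BTC. CXCL6, PF4V1, PF4, PPBP and CXCL5 lie between called genes and the highest difference among them was 0.25, all below noise. MTHFD2L, a mitochondrial folate enzyme next to CXCL2, differed by 0.16, EREG by 0.19 and BTC by -0.03, also below noise. A second chromosome 4 group, of chemokines that act on the T cell receptor CXCR3, showed the same mixture. CXCL10 and CXCL11 were called and CXCL9, their neighbour, differed by -0.08.

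**Figure D2:**
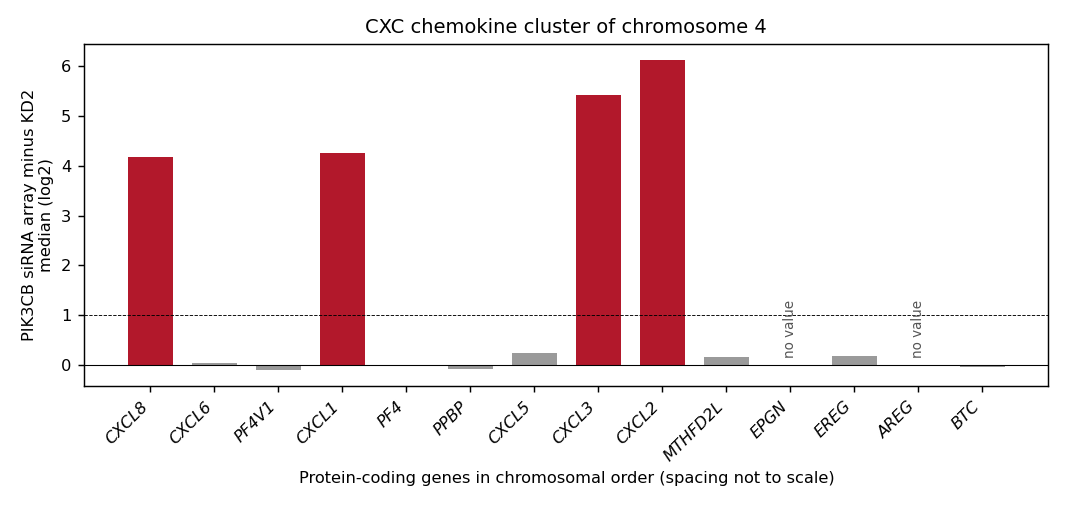
Bars give the difference, PIK3CB siRNA array minus the median of the other 22 KD2 arrays on the log2 scale, for protein-coding genes of the chromosome 4 cluster in order along the chromosome. CXCL8, CXCL1, CXCL3 and CXCL2 stand between 4.16 and 6.12, and the genes between them, all below noise, stand near 0.

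Among other chemokines, CCL2, which attracts monocytes, stood at 9.77 in the PIK3CB siRNA array, against 3.82, 4.39 and 5.09 in the other KD2 arrays. The difference was 5.38, or 41.6-fold. CCL20, the ligand of CCR6, stood at 9.86, against 4.48, 5.28 and 5.86, a difference of 4.58. CXCL10 stood at 8.21, against 3.99, 4.44 and 4.73, and CXCL11 at 4.99, against 3.05, 3.17 and 3.49, both below noise in every KD2 array. Of 21 other chemokines measured these 4 were called (19%), and the remaining 17 lay between -0.18 and 0.20, all below noise. CCL7, CCL11 and CCL8, which follow CCL2 along chromosome 17, differed by 0.00, -0.05 and 0.02, all below noise. CCL5, a frequent companion of CCL2 in inflammation, differed by 0.18.

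Of 32 interleukins and related cytokines, 3 were called. IL1A, which triggers the interleukin-1 receptor, stood at 9.24, against 5.89, 7.23 and 8.14 in the other KD2 arrays. Its difference of 2.01 was 3.19 SD of those arrays, which varied more for IL1A than for the chemokines above. The second IL1A probe set, below noise, differed by 0.21, within the range of the other KD2 arrays. LIF, a cytokine that signals through gp130, stood at 9.10, against 6.60, 7.27 and 7.61. IL1B stood at 7.27, against 5.87, 6.17 and 6.86, which places it below noise, and its difference of 1.10 became 0.97 against the mean of the 22 arrays. The second IL1B probe set, also below noise, was called at 1.67. TNF, LTB, CSF1, IL19, IL32 and IL6 lay above all 22 arrays by less than 2-fold, all below noise. IL6, a classic NF-kappaB target, stood at 4.05, with a difference of 0.36. IL24, a cytokine that A375 cells expressed above noise, stood at 9.03 in the PIK3CB siRNA array and at a median of 9.51 in the others, within their range. Over the 60 ligands measured in all 3 lists, 11 were called higher (18.3%) and none lower. The median difference of 0.02 was close to that of all genes, and 51 of the 60 were below noise in both.

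**Figure D3:**
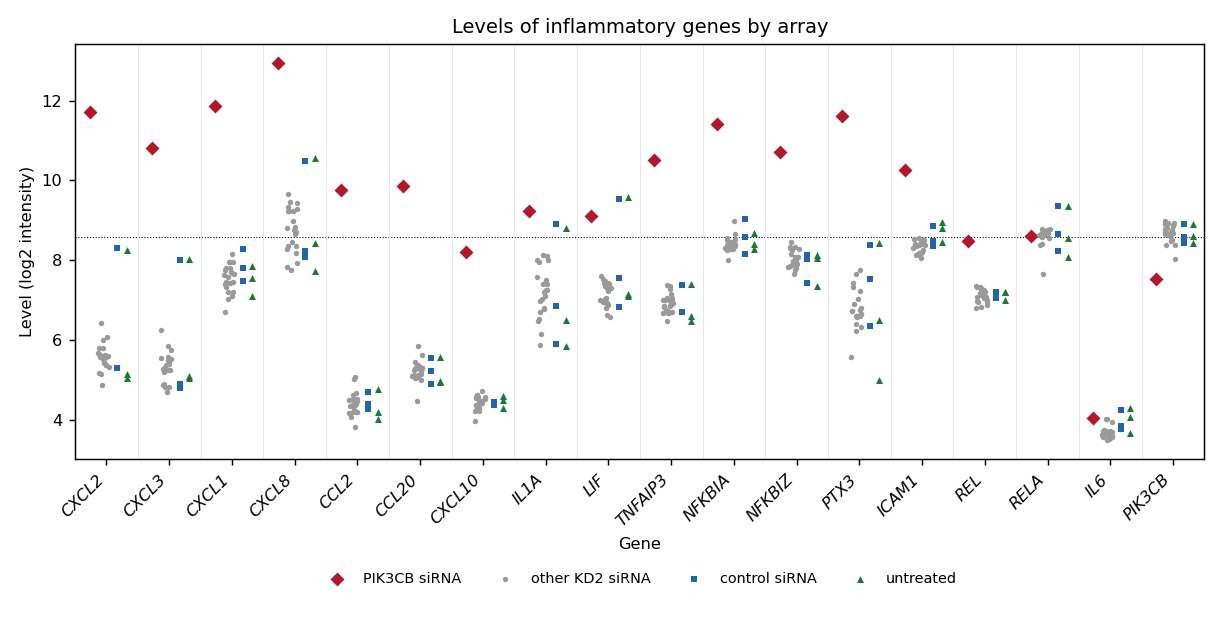
Log2 intensities of 18 genes by array, with the PIK3CB siRNA array (red diamond), the other 22 KD2 arrays (grey), the 3 control siRNA arrays (blue squares) and the 3 untreated arrays (green triangles). The dotted line is the noise limit of 8.59. The red diamond is above every other point for CXCL2, CXCL3, CXCL1, CXCL8, CCL2, CCL20, CXCL10, TNFAIP3, NFKBIA, NFKBIZ, PTX3, ICAM1 and REL. It lies within the range of the other KD2 arrays for RELA and below all others for PIK3CB. Control siRNA array 3 and untreated array 3 stand high for CXCL2, CXCL3, CXCL8, IL1A, LIF and PTX3.

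Inhibitors that NF-kappaB induces against itself were among the genes called. NFKBIA, the IkappaB-alpha gene, stood at 11.42 in the PIK3CB siRNA array, against 8.01, 8.37 and 8.98 in the other KD2 arrays, a difference of 3.04 or 8.24-fold. Its second probe set, below noise, differed by 0.15. TNFAIP3, the ubiquitin-editing enzyme A20, stood at 10.51, against 6.49, 6.92 and 7.38, a difference of 3.58 or 12-fold. NFKBIZ, a nuclear IkappaB protein, stood at 10.70, against 7.67, 7.99 and 8.46, a difference of 2.71. IER3 and NFKBIE were called at 1.18 and 1.08. These were 5 of the 13 genes with a value (38.5%) in the list named feedback inhibitors, whose median was 0.68. In the same list TNIP1, NFKBID, CYLD and BIRC2 lay above all 22 arrays at 0.54 to 0.71. TNIP2, NFKBIB, TNIP3 and N4BP1 lay between -0.15 and 0.04. The brighter probe set annotated to MIR146A, the gene of a microRNA known to target IRAK1 and TRAF6, stood at 11.19, against 5.95, 6.90 and 7.31. It reads the longer transcript rather than the mature microRNA. A second MIR146A probe set, below noise, differed by 0.20. ZFP36, which destabilises cytokine mRNAs, was called at 1.40 and SOCS3, an inhibitor of gp130 signalling, at 1.24. The other 3 SOCS3 probe sets differed by -0.21 to 0.46.

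Of 21 NF-kappaB subunits and upstream kinases, 3 were called higher (14.3%), with a list median of 0.14. REL was called at 1.34, with 3 of its 5 probe sets called, and RELB at 1.19. IRAK2, a kinase of interleukin-1 and Toll-like receptor signalling, was called at 1.65 on the brightest of its 3 probe sets, while the other 2, both below noise, differed by 0.10 and 0.11. NFKB2 and NFKB1 lay above all 22 arrays at 0.89 and 0.28. RELA, the main transactivating subunit, differed by -0.06, and IKBKB, an IkappaB kinase, by -0.09. Among 34 cytokine receptors 1 was called, TNFRSF9, at 2.69 on 1 of its 3 probe sets. The receptors IL1R1, TNFRSF1A and CXCR2 differed by 0.02, -0.14 and 0.13, and TLR2 lay above all 22 arrays at 0.66, below noise.

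Of 30 inflammatory effector genes, 9 were called (30%). PTX3, a secreted pattern recognition protein, stood at 11.61 in the PIK3CB siRNA array, against 5.58, 6.69 and 7.77 in the other KD2 arrays, a difference of 4.92 or 30.3-fold. TNFAIP2 was called at 2.74, the adhesion molecule ICAM1 at 1.87 on a level of 10.25, with all 3 of its probe sets called, and complement C3 at 1.54. SOD2, TNFAIP6, PTGS2 (cyclooxygenase-2), the transcription factor IRF1 and CD83 were called at 1.22 to 2.75 with both levels below noise. Members that did not follow were VCAM1 at 0.02, PLAU at 0.09 and MMP3 at -0.04, all below noise, and PLAUR at 0.04 with a level of 9.39. Among AP-1 and C/EBP factors, CEBPD was called at 2.83 on a level of 10.44 and JUNB at 1.21, and JUN, FOSL2, MAFF and CEBPB lay above all 22 arrays at 0.70 to 0.99. FOS and ATF3 differed by 0.08 and -0.01.

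**Figure D4:**
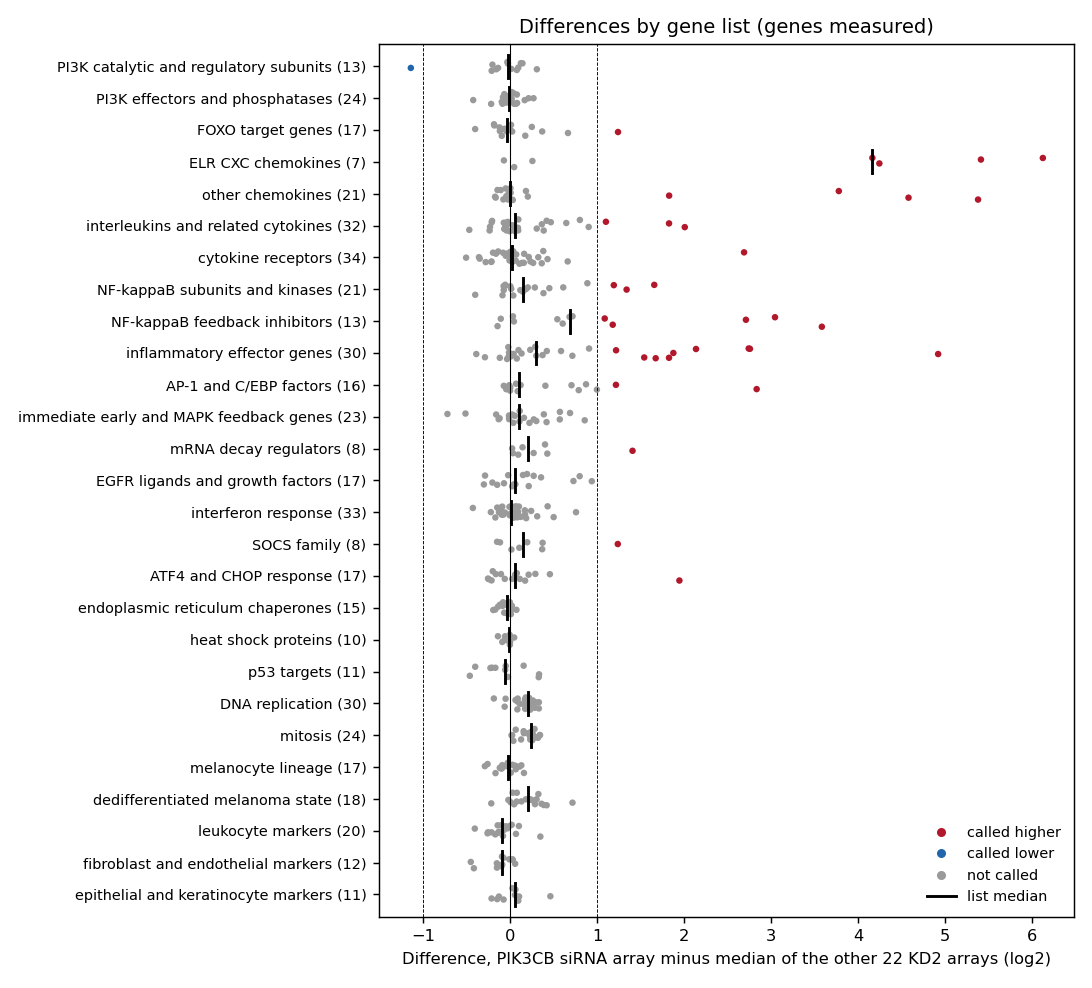
Points are the genes of 27 lists and the horizontal axis is the difference, PIK3CB siRNA array minus the median of the other 22 KD2 arrays on the log2 scale, with the list median as a black bar. Called genes (red) gather in the chemokine, NF-kappaB inhibitor and effector lists, whereas the interferon, heat shock, p53 and chaperone lists have none.

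Genes in no list made up 25 of the 60. COXFA4L3, a paralogue of a mitochondrial complex IV subunit, stood at 8.83 against a median of 4.63 in the other KD2 arrays, and FDCSP, a small secreted peptide, at 10.19 against 6.31. BCL2A1, an anti-apoptotic BCL2 relative, was called at 2.82, and TNFRSF11B, the decoy receptor osteoprotegerin, at 2.35, both below noise. EBI3, a subunit of the interleukin-27 and interleukin-35 cytokines, was called at 2.31 and ICAM4 at 2.55, likewise below noise. EFNA1, an ephrin, was called at 1.98, the vasodilator peptide ADM at 1.89, the arrestin-domain gene ARRDC3 at 1.88, the circadian repressor BHLHE40 at 1.87, the proteoglycans SRGN and SDC4 at 1.77 and 1.41, and TIFA, an adaptor that binds TRAF6, at 1.26. DDIT4, an inhibitor of mTORC1 that sits in the ATF4 and CHOP list, was called at 1.94 on a level of 12.78, and the other 16 genes of that list lay between -0.26 and 0.45. CLK1 and CLK4, kinases of splicing factors, were called at 1.17 and 1.11. SCD5 was called at 1.11 on 1 of 4 probe sets, and the other 3 lay between -0.40 and -0.13.

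Lower genes were few. ND6, which is encoded by mitochondrial DNA, stood at 9.03 in the PIK3CB siRNA array, against 9.71, 10.41 and 11.13 in the other KD2 arrays, a difference of -1.38. Outside KD2 it stood lower still in control siRNA array 3 (8.46) and in untreated arrays 1 and 3 (8.46 and 8.58). Its KD3 median was 8.19, while the other control siRNA and untreated arrays stood at 9.94 to 10.36. IGFBP5, which binds insulin-like growth factors, stood at 7.96, against 8.26, 9.19 and 10.05, a difference of -1.23, and its 5 other probe sets, all below noise, differed by -0.72 to 0.03. Among genes above noise, the next were PCDH9, a protocadherin, at -0.72, SLITRK6 at -0.61 and DCBLD2 at -0.56, each below all 22 arrays. PCDH9, at 8.31 in the PIK3CB siRNA array, was 0.54 above the mean of the control siRNA arrays. Its KD3 median was 6.13. SLITRK6, at 9.49, stood lower in untreated array 1, at 9.14. IGFBP5 and DCBLD2 were below all 44 other arrays of the series. Of 5014 genes above noise in the PIK3CB siRNA array or in the KD2 median, 105 lay below the range of the other arrays and 295 above it. By the KD2 median alone 4831 genes were above noise. The rest entered through a high level in the PIK3CB siRNA array, which favours the count above, so the balance is not read. Over all 19775 genes 908 lay below the range and 791 above it.

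The differences did not extend to every stress or immune response. None of 33 interferon response genes was called, with a median of 0.01, although the interferon-inducible chemokines CXCL10 and CXCL11 were. IFIT1 and ISG15, direct interferon targets, differed by -0.11 and -0.09, and IFIH1 by 0.75 below noise. No gene was called among 15 endoplasmic reticulum chaperones (median -0.04), 10 heat shock proteins (-0.01) or 11 p53 targets (-0.06). None of 23 immediate early and MAPK feedback genes was called, with a median of 0.10. Of the 23, 6 lay above all 22 arrays, beside 4.00% of all genes, with EGR1 among them at 0.85. MYC lay below all 22 at -0.52. Among growth factors, INHBA, a subunit of activin, reached 12.14 in the PIK3CB siRNA array against a median of 11.21, above all 22 arrays but short of 2-fold. DNA replication genes had a median of 0.20 and mitosis genes 0.24, with 27 of 30 and 24 of 24 above the KD2 median and none called. Many of the other 22 siRNAs target cell cycle genes, and their part in these medians was not tested.

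Markers of leukocytes, fibroblasts and endothelium were low. Of 20 leukocyte markers none was called or above noise, with a median difference of -0.10, and the summed linear signal was 761 in the PIK3CB siRNA array, against 691 to 971 in the other KD2 arrays. PTPRC and CD14, which define leukocytes and monocytes, stood at 3.78 and 4.48. The 12 fibroblast and endothelial markers were all below noise, with a summed signal of 595 against 599 to 724. Of 11 epithelial and keratinocyte markers none was called, but 2 were above noise. Their summed signal was 6689 in the PIK3CB siRNA array, against 6091 to 7876 in the other KD2 arrays. Melanocytic lineage genes did not differ by more than 0.29 in either direction. SOX10 and MITF stood at 10.86 and 8.93 in the PIK3CB siRNA array, while the pigment genes PMEL, MLANA and TYR were below noise in both. Of 18 genes of the dedifferentiated melanoma state none was called, with a median of 0.20.

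The correlation of the PIK3CB siRNA array with the median of the others was 0.9962, the lowest of the 23 KD2 arrays, against 0.9963 to 0.9986 for the other 22. Its interquartile range of gene levels was 4.19 against 3.89 to 4.28, and its 3' minus 5' difference for the ACTB control probes was 1.54 against 1.09 to 2.08. The same rule applied to each KD2 array in turn called 60 genes higher in the PIK3CB siRNA array, against 0 to 14 in the others, with a median of 2. A gene could be called higher in another array only if it also lay above the PIK3CB siRNA array. FOXM1 siRNA gave 14 higher and 41 lower, and CCNA2 siRNA 13 higher and none lower. The 60 genes had a median difference of 1.88 in the PIK3CB siRNA array, as their choice fixes, against -0.09 to 0.12 in the others. Differences of another array were from the median of the remaining KD2 arrays, with the PIK3CB siRNA array left out. In the RELA siRNA array, where RELA mRNA stood at 7.66 against a median of 8.66, the differences of the 60 genes ran from -0.44 for TNFRSF11B to 0.94 for NTM, with a median of 0.05. CXCL2, at 6.43, and NFKBIZ, at 8.46, were the highest of the other 22 KD2 arrays there, while NFKBIA differed by 0.01 and CXCL8 by -0.06. In the AKT1 siRNA array, where AKT1 mRNA differed by -1.40, the 60 genes had a median difference of -0.06. MIR146A had the lowest difference there, -1.01, and PTX3 the highest, with a level of 7.67 against a median of 6.66, while NFKBIA differed by -0.12 and CXCL8 by 0.49. In the MAP2K1 siRNA array CXCL8 stood at 7.76, the lowest of the KD2 arrays, and the 60 genes ran from -1.36 for IL1A to 1.06 for SCD5.

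**Figure D5:**
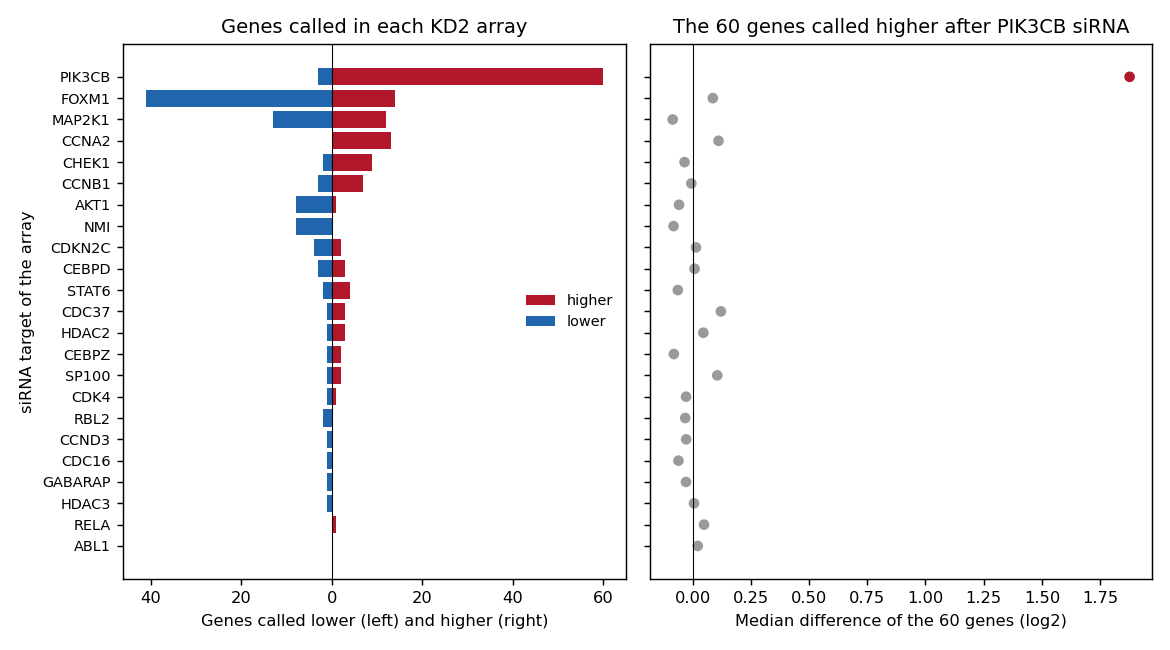
The left panel gives the genes called higher (red, to the right) and lower (blue, to the left) in each KD2 array against the median and range of the other 22, and the right panel gives the median log2 difference, in each array, of the 60 genes called higher after PIK3CB siRNA. The PIK3CB siRNA array has 60 genes higher, against at most 14 in any other array. The 60-gene median is 1.88 in that array, where these genes were chosen, and between -0.09 and 0.12 in the others. The right panel leaves the PIK3CB siRNA array out of the reference of the other arrays.

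Levels outside batch KD2 differed for some of the genes. Of the 60, 8 stood 2-fold or more above the KD2 median and above all 22 KD2 arrays in every one of the 7 KD3 arrays: ARRDC3, CXCL2, CXCL3, CXCL8, DDIT4, IL1A, LIF and NFIL3. The same 8 did so in control siRNA array 3 and in untreated array 3, but none of them did in the 2 other control siRNA arrays, the 2 other untreated arrays or the 9 KD1 arrays. In all, 13 of the 60 did so in control siRNA array 3 and 12 in untreated array 3. PTX3, BHLHE40 and TNFRSF9 were among these in both, and did so in 5 or 6 of the 7 KD3 arrays. Other genes did so in KD1: FDCSP in 8 of the 9 arrays, SCD5 in 7, BCL2A1 in 4, and COXFA4L3, CXCL1 and NFKBIA in 1 each. FDCSP also did so in control siRNA array 1, at 7.90, and in untreated array 1, at 9.04, against 10.19 after PIK3CB siRNA. For SCD5 the KD1 median of 7.51 was above the level of 7.06 in the PIK3CB siRNA array. PTX3, at 11.61 after PIK3CB siRNA, stood at 7.61 to 8.81 in KD3. For CXCL2 the PIK3CB siRNA array, at 11.71, was 3.37 above the highest KD3 array, and the KD3 arrays lay between 7.91 and 8.35. The control siRNA arrays stood at 5.30, 5.31 and 8.30 and the untreated arrays at 5.05, 5.16 and 8.27. CXCL8, at 12.94, was 1.43 above the highest KD3 array, with KD3 at 10.54 to 11.51 and the control siRNA arrays at 8.08, 8.23 and 10.50. For DDIT4, IL1A, LIF, NFIL3 and ARRDC3, by contrast, at least 1 KD3 array was above the PIK3CB siRNA array. LIF stood at 9.10, against 8.81 to 9.54 in KD3 and 9.53 in control siRNA array 3, and NFIL3 at 7.84, against 8.86 to 9.06 in KD3. The part of the batch in these levels was not tested. No KD3 or KD1 array had a median of the 60 genes beyond 0.18 in size within its own batch.

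A different set of the genes was high in the PIK3CB siRNA array and in no array outside KD2 by the same measure. These were 32 of the 60 and included CCL2, CCL20, CXCL10, TNFAIP3, NFKBIZ, ICAM1, REL and RELB. CCL2, at 9.77 after PIK3CB siRNA, stood at 4.70, 4.41 and 4.28 in the control siRNA arrays and 4.78, 4.04 and 4.20 in the untreated arrays. NFKBIA, at 11.42, stood at 9.04, 8.16 and 8.58 with control siRNA and 8.42, 8.28 and 8.68 untreated. It passed the measure in the FOXO3A siRNA array of KD1. Of the 60 genes, 53 were above all 44 other arrays of the series. The 7 exceptions were ARRDC3, DDIT4, IL1A, IL1B, LIF, NFIL3 and SCD5. Against control siRNA array 3 alone, 45 of the 60 were 2-fold higher or more, and against the mean of control siRNA arrays 1 and 2, 57 were.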

How the data were processed

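The deposited intensity values, made by the authors with RMA (version not stated), were linear and were taken to log2 with no further normalisation. Groups came from the labels and batches from the study's list of siRNA targets. Of 54675 probe sets, 41097 had 1 gene name, and the brightest of a gene's probe sets, by its mean over 45 arrays, stood for the gene. Genes with several names or none were not named. The PIK3CB siRNA array was compared with the median and range of the other 22 KD2 arrays. With 1 array there is no p-value, except an exact rank test for PIK3CB. limma 3.58.1 in R 4.3.3 was an alternative. The call rule and limma were tested on simulated data. Promoter windows were RefSeq, GRCh38.p14. Genes named are those called that belong to the lists, defining list members, the largest differences and chromosomal neighbours. Members and lists were chosen with earlier results of these data known. Replicate arrays are not stated to be separate cultures. Arrays have no read depth, and the number of arrays limits the precision.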

Additional observations from a re-analysis of the deposited data

How the results depend on the processing

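Of the 61 called genes besides CXCL8 and PIK3CB, 34 were called under all 9 alternatives of reference, probe set and scale. SCD5 turned direction, to -0.40 with the probe set brightest over the other 22 arrays and to -0.22 with the median of its probe sets. The 60 genes higher and 3 lower became 104 and 19 against the 3 control siRNA arrays (52 of the 60 and 2 of the 3 shared), and 95 and 16 against control siRNA arrays 1 and 2 (57 and 2 shared). Against these, PIK3CB differed by -1.11 (exact p = 0.25) and -0.97 (exact p = 0.3333), the smallest p those few arrays allow, and against arrays 1 and 2 CXCL8 differed by 4.79 and the ligand median was 0.0947. The numbers higher and lower were 148 and 26 at 1.5-fold, 38 and 0 at 3-fold, and 105 and 22 outside the range by over 4 SD with no fold. Only genes with a KD2 median above noise gave 4 higher, 1 of them a ligand, and adding those above noise in the PIK3CB siRNA array gave 33. limma, with the lone array assumed to vary like the others, called 95 higher and 9 lower at an adjusted p under 0.05, with 54 of the 60 and 2 of the 3 among them. Leaving out each of the 22 arrays gave 60 to 61 genes higher, 3 lower, 11 ligands, a ligand median of 0.02 to 0.03, CXCL8 at 4.13 to 4.19 and PIK3CB at -1.15 to -1.14. No paired analysis was possible because the PIK3CB siRNA group is 1 array, and its replicate number pairs it with no other.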
